A study of Saccharomyces cerevisiae with 6 samples.

Results

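The glyoxylate cycle and gluconeogenesis let yeast build sugars from acetate, ethanol and other compounds with few carbons. The glyoxylate cycle bypasses the decarboxylating steps of the tricarboxylic acid cycle, so that acetyl-CoA yields 4-carbon acids, and gluconeogenesis turns these acids into hexose phosphates. The genes of both pathways are repressed when glucose is present and are activated, when it is exhausted, by the kinase Snf1 and the zinc cluster activators Cat8 and Sip4. Transcripts of 10 genes of these pathways were examined, chosen by function but with earlier results of these data known. They are the activator gene CAT8, ACS1 for acetate activation, ICL1, MLS1, CIT2 and MDH2 for the glyoxylate cycle and its citrate and malate steps, SFC1 for mitochondrial exchange, PCK1 and FBP1 for gluconeogenesis, and the citrate synthase gene CIT3. All 10 had a probe set on the array, 1 each, among the 5449 genes of S. cerevisiae that it measured.

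The 2 groups were yeast cells that overexpressed GST alone and yeast cells that overexpressed GST-Med3 (written GST-med3 in the sample labels), a fusion of GST with the Mediator tail subunit Med3. In both, the constructs were driven by the galactose-induced GAL1/10 promoter on a plasmid, with 48 h of overexpression. Galactose was thus the inducer in both groups. The paper names raffinose or galactose as the carbon source when proteins were overexpressed, and does not give it for the array cultures separately. Its transcript time course and growth curves used galactose medium without uracil. No shift of either group to acetate or ethanol is described. Strains of the study derive from BY4741, a MATa strain that lacks HIS3, LEU2, MET15 and URA3. The study's strain list gives these constructs in BY4741 with tagged Med18 (3FLAG) or tagged Med3 (GFP), and does not tie the arrays to a strain. Cells of each group were grown as 3 biological replicates, lettered A to C, and each was hybridized to 1 Affymetrix Yeast Genome 2.0 Array. In such bulk RNA, a lower signal in every cell and a signal lost from some of the cells cannot be told apart.

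MED3, listed on the array as PGD1, had log2 signals of 8.24, 8.01 and 8.07 with GST and of 11.85, 11.73 and 11.84 with GST-Med3 (13.0-fold higher). The genes that mark a cells (MFA1, MFA2, STE2, STE6, BAR1 and AGA2) lay above background on all 6 arrays, whereas of the alpha-cell markers the pheromone genes MF(ALPHA)1 and MF(ALPHA)2 did so on none and the other 2, STE3 and SAG1, on all 6. The summed signal of the 6 a-cell markers was 15756 to 17303 units with GST and 20762 to 22745 with GST-Med3, and that of the 4 alpha-cell markers 946 to 995 and 1025 to 1060. The alpha-cell markers above background went in opposite directions in the deposited values. STE3 was lower with GST-Med3 (log2 difference -0.45) and SAG1 higher (0.37). The part of these a-cell and alpha-cell markers in the results was not tested. The array also carries 1747 probe sets for the fission yeast S. pombe, which served as background. A probe set was called above background on an array when it exceeded their 95th percentile there, a log2 signal of 7.47 to 7.51. The median of all S. cerevisiae probe sets ranged from 9.99 to 10.08 on the GST arrays and from 9.87 to 9.99 on the GST-Med3 arrays. Differences are therefore given as deposited, where the median over all S. cerevisiae probe sets was -0.08, and with the median of each array set to 0 (centring), where it was 0.01.

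All 10 genes were lower in cells with GST-Med3, none by as much as 2-fold. As deposited, all 10 passed the test (an adjusted p under 0.05 by limma, two-sided, Benjamini-Hochberg over all probe sets), where 47.8% of all probe sets were called lower, 27.1% higher and 74.9% either. None of the 10 was higher, at an adjusted or an unadjusted p. After centring, 9 of 10 were called lower, where 41.7% of all probe sets were called lower and 85.3% in either direction. The exception was MDH2. The median log2 difference of the 10 genes, GST-Med3 minus GST, was -0.34 as deposited and -0.25 after centring. In both, 8 of the 10 genes lay below the lower quartile of all differences, where 25% of all probe sets lie. For 9 of the 10 every GST-Med3 array lay below every GST array, before and after centring. As deposited, the groups did not overlap for 75% of all probe sets, 48.4% lower and 26.6% higher with GST-Med3, and after centring for 85.4%. None reached the 2-fold limit, which 1.84% of all probe sets passed, 1.2% lower and 0.637% higher.

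**Figure D1:**
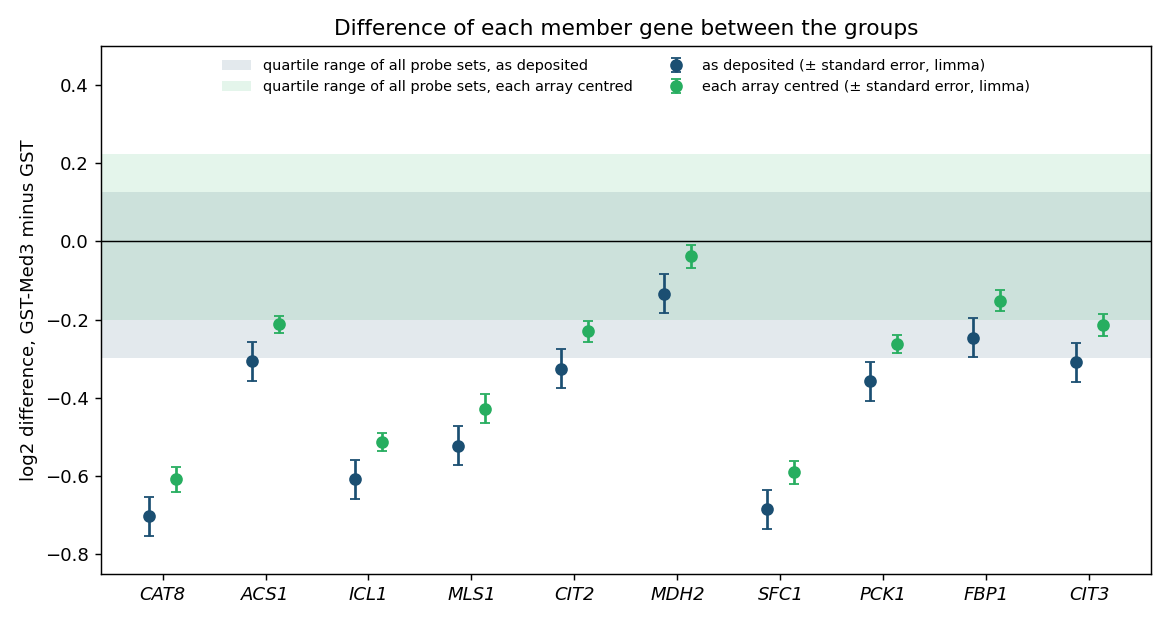
Log2 difference (GST-Med3 minus GST, vertical axis) of each of the 10 genes, as deposited (blue) and after centring each array on its median (green), with the standard error from limma. The shaded bands run from the lower to the upper quartile of all probe sets. All 10 points lie below 0 in both scalings, and CAT8, SFC1, ICL1 and MLS1 lie farthest below.

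The standard error was 0.05 for every gene as deposited, since limma estimated 1 common variance, and between 0.0214 (ACS1) and 0.0362 (MLS1) for these genes after centring. The adjusted p-values as deposited rest on that common spread, so sizes and order of the replicates are given for each gene. Replicates of these genes also moved together. Within the GST group, replicate A was highest and replicate B lowest for 9 of the 10 genes, the order of the array medians, and only CIT2 had its highest value in replicate C.

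CAT8 (YMR280C), which encodes the zinc cluster activator of gluconeogenic genes, had the largest decrease of the 10 as deposited and after centring, close to that of SFC1. After background subtraction with centring, CAT8 had -0.71, and MLS1 (-0.90) and SFC1 (-0.80) had larger decreases. In the order of replicates A to C, which is kept below, its log2 signal was 9.39, 9.33 and 9.38 with GST and 8.66, 8.68 and 8.66 with GST-Med3. The groups were separated by 0.66 on the log2 scale between the lowest GST and the highest GST-Med3 array. The log2 difference was -0.70, a 1.63-fold decrease, and it was the 177th largest decrease among all probe sets. After centring it was -0.61 (adjusted p = 1.48e-09 from limma, at most 9.16e-08 over 22 alternatives). The spread of the 3 GST-Med3 arrays was 0.0087 (SD) as deposited and 0.0700 after centring, so for CAT8 the deposited values did not share the offsets of these arrays.

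ACS1 (YAL054C) encodes the acetyl-CoA synthetase that is made on non-fermentable carbon sources and turns acetate into acetyl-CoA, the substrate of the cycle. Its log2 signal was 10.26, 10.14 and 10.19 with GST and 9.93, 9.80 and 9.93 with GST-Med3. The groups did not overlap, and the difference of -0.31 (1.24-fold) became -0.21 after centring.

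ICL1 (YER065C) encodes isocitrate lyase, which splits isocitrate into succinate and glyoxylate and opens the bypass. The probe set read 9.09, 8.96 and 8.99 with GST and 8.45, 8.34 and 8.42 with GST-Med3. Its decrease was -0.61 as deposited (1.52-fold) and -0.51 after centring (adjusted p = 3.97e-10 from limma, at most 2.11e-08 over 22 alternatives). MLS1 (YNL117W) encodes malate synthase, which joins glyoxylate with acetyl-CoA. It was the dimmest of the 10 probe sets, at log2 signals of 7.45, 7.35 and 7.38 with GST and 6.81, 6.89 and 6.91 with GST-Med3. No array of either group was above background, although its mean with GST exceeded 94.7% of the S. pombe probe sets and its mean with GST-Med3 90.1%. The groups did not overlap and the log2 difference was -0.52, but its size depended on the background. It was -0.43 after centring and -0.90 after the median S. pombe signal was subtracted and the arrays were centred. No fold change is given for MLS1.

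CIT2 (YCR005C) encodes the peroxisomal citrate synthase, a gene known for its induction by the retrograde pathway that reports mitochondrial dysfunction to the nucleus. It was bright, with log2 signals of 13.34, 13.28 and 13.38 with GST and 13.07, 12.93 and 13.02 with GST-Med3. The groups did not overlap and the log2 difference was -0.33 (1.25-fold), or -0.23 after centring. MDH2 (YOL126C) encodes the cytosolic malate dehydrogenase, which supplies oxaloacetate for gluconeogenesis. On the log2 scale it read 12.06, 11.84 and 11.95 with GST and 11.86, 11.76 and 11.83 with GST-Med3. The groups overlapped, since GST replicate B lay below GST-Med3 replicate A. The log2 difference of -0.13 passed the test as deposited (adjusted p = 0.0109 from limma). It was -0.04 after centring (adjusted p = 0.242) and -0.08 without GST replicate A (adjusted p = 0.187), and its adjusted p reached 0.823 over the 22 alternatives. For MDH2 a difference between the groups was thus not established.

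SFC1 (YJR095W) encodes the carrier that brings succinate from the cycle into mitochondria in exchange for fumarate. Signals on the log2 scale were 8.54, 8.42 and 8.49 with GST and 7.76, 7.77 and 7.87 with GST-Med3. No replicate overlapped, and the difference of -0.69 (1.61-fold), or -0.59 after centring, was the second largest of the 10 and the 187th largest decrease of all probe sets. The gap between the lowest GST and the highest GST-Med3 array was 0.55.

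**Figure D2:**
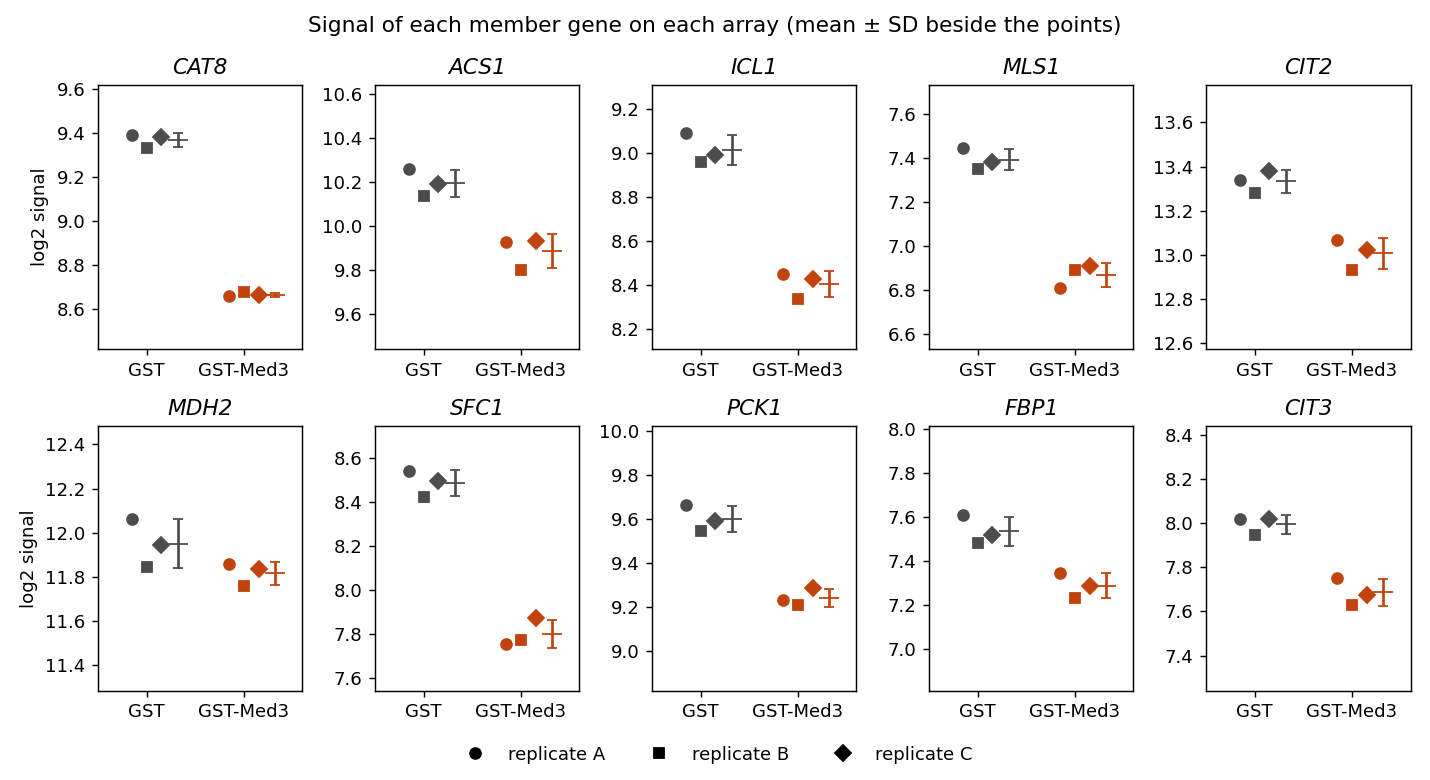
Log2 signal (vertical axis, each panel spans 1.2 log2 units) of each of the 10 genes on each of the 6 arrays, with GST in grey, GST-Med3 in orange and a symbol for each replicate. The bars beside the points show the mean and SD of 3 arrays. The groups overlap in the panel of MDH2 and in no other panel.

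PCK1 (YKR097W) encodes phosphoenolpyruvate carboxykinase, which starts gluconeogenesis from oxaloacetate. Its log2 signal was 9.66, 9.55 and 9.59 with GST and 9.23, 9.21 and 9.29 with GST-Med3, a difference of -0.36 (1.28-fold) and of -0.26 after centring. FBP1 (YLR377C) encodes fructose-1,6-bisphosphatase, which removes a phosphate near the end of the pathway. The log2 signals were 7.61, 7.48 and 7.52 with GST and 7.35, 7.23 and 7.29 with GST-Med3. In FBP1, 2 of 3 GST arrays and none of the GST-Med3 arrays were above background. The difference of -0.25, or -0.15 after centring and -0.30 after background subtraction with centring, is thus measured against a level close to background. Neither gene had overlapping groups.

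CIT3 (YPR001W) encodes a mitochondrial citrate synthase that can also use propionyl-CoA and so makes 2-methylcitrate. Its log2 signal was 8.02, 7.95 and 8.02 with GST and 7.75, 7.63 and 7.68 with GST-Med3. The groups did not overlap, and the difference was -0.31 (1.24-fold), or -0.21 after centring. By size the 10 decreases fell into CAT8, SFC1, ICL1 and MLS1, from -0.70 to -0.52, and the other 6 genes, from -0.36 to -0.13. Within the second set PCK1, CIT2, CIT3 and ACS1 lay between -0.36 and -0.31, a span close to the standard error of 0.05, so that their order is not resolved.

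**Figure D3:**
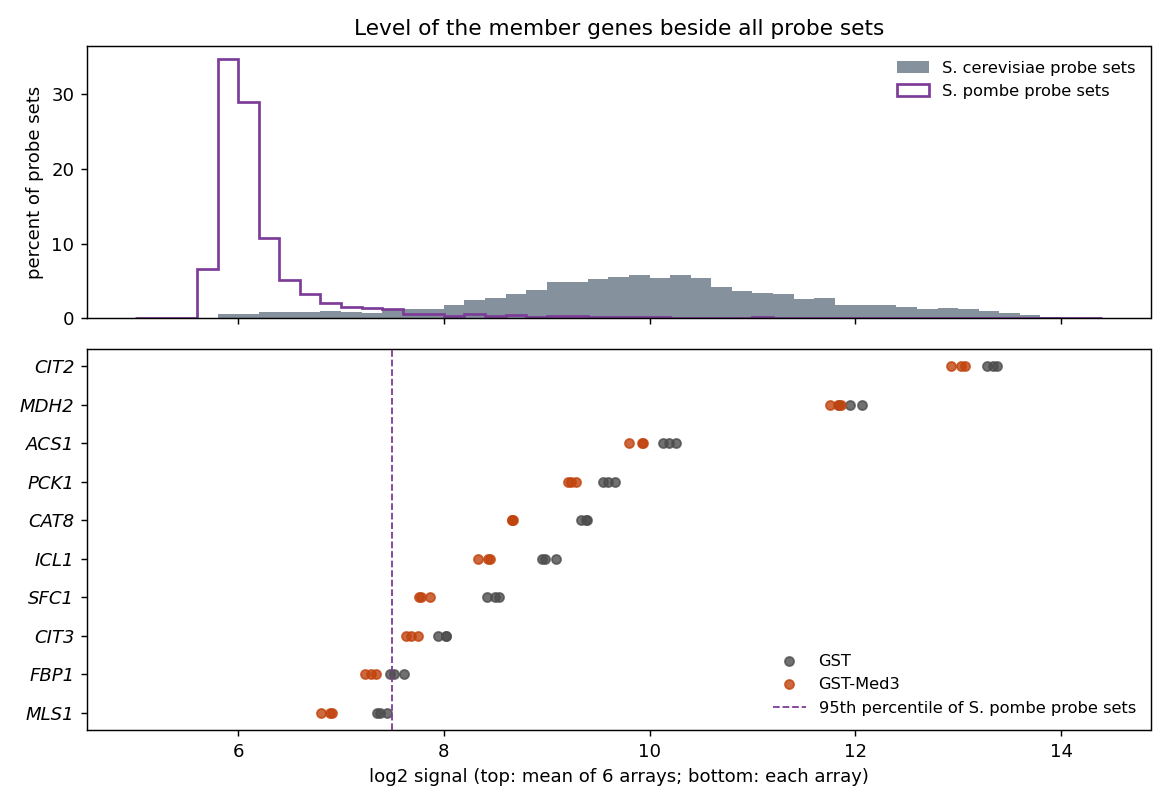
Top, percent of probe sets (vertical axis) by mean log2 signal over 6 arrays, for S. cerevisiae (grey) and S. pombe (purple line). Bottom, log2 signal of each of the 10 genes on each GST (grey) and GST-Med3 (orange) array, with the mean over arrays of the 95th percentile of S. pombe probe sets (dashed). MLS1 lies below the dashed line in both groups and FBP1 with GST-Med3, and the other 8 genes lie above it on all arrays. Levels of different probe sets are not comparable with each other.

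Several of the 10 genes have isoforms or paralogs in other compartments. The log2 ratio of a pair on the same array removes an offset that both probe sets share there. Offsets were not the same for all probe sets. In both groups replicate B had the lowest median of the S. cerevisiae probe sets but the highest of the S. pombe probe sets. A ratio of probe sets of unlike brightness may thus keep part of an offset. ACS2 encodes the acetyl-CoA synthetase that is needed on glucose, and its signal was 12.14, 12.00 and 12.06 with GST and 12.24, 12.15 and 12.26 with GST-Med3. ACS2 thus rose by 0.15 as deposited and 0.24 after centring while ACS1 fell. The difference between their changes was -0.45 ± 0.01 (SE, n = 3 arrays per group). The groups of log2 ratios did not overlap for any of 8 pairs, but they did not overlap for 86.1% of all pairs of probe sets either. An exact two-sided permutation test of 3 against 3 arrays gave p = 0.10 for each pair, also adjusted over the 8 pairs, which is the smallest p it allows.

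Among the malate dehydrogenases the peroxisomal isoform gene MDH3 fell by 0.57 and the mitochondrial gene MDH1 by 0.27. Relative to MDH3, MDH2 was higher with GST-Med3 by 0.43 ± 0.03, and relative to MDH1 by 0.13 ± 0.03 (SE, n = 3 arrays per group). Among the citrate synthases the mitochondrial gene CIT1 of the tricarboxylic acid cycle fell by 0.47. Relative to CIT1, CIT2 was higher by 0.14 ± 0.02. ICL2, which encodes the 2-methylisocitrate lyase of propionate metabolism, fell by 0.55, and the change of ICL1 minus that of ICL2 was -0.06 ± 0.02, or -0.15 after background subtraction. DAL7 encodes a malate synthase of allantoin breakdown, and its difference was -0.15 as deposited, past the test, but -0.05 after centring (adjusted p = 0.0711 from limma, at most 0.306 over 22 alternatives). The change of MLS1 minus that of DAL7 was -0.37 ± 0.03, or -0.83 after background subtraction, with the limit that MLS1 was not above background.

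SIP4 encodes the second zinc cluster activator that binds the same promoter element as Cat8. It fell by 0.36, from log2 signals of 7.62, 7.56 and 7.61 with GST to 7.21, 7.23 and 7.26 with GST-Med3, where no array was above background. The change of CAT8 minus that of SIP4 was -0.34 ± 0.02 as deposited and -0.22 after background subtraction, so its size is not settled. PDH1, which encodes a putative 2-methylcitrate dehydratase acting downstream of CIT3, was paired with it after its values had been seen. PDH1 rose from 8.93, 8.84 and 8.83 to 9.23, 9.24 and 9.28, a difference of 0.38. The change of CIT3 minus that of PDH1 was -0.69 ± 0.05, the largest of the 8 pairs.

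**Figure D4:**
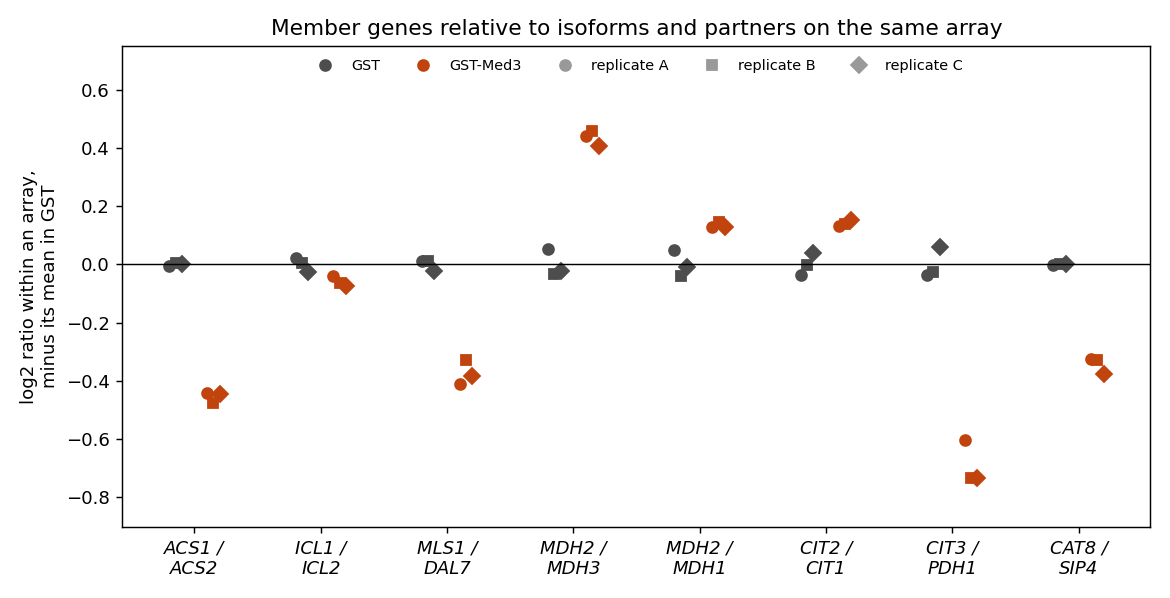
Log2 ratio of 2 genes on the same array, minus its mean over the GST arrays (vertical axis), for 8 pairs, with GST in grey, GST-Med3 in orange and a symbol for each replicate. The groups do not overlap in any pair. MDH2 lies higher relative to MDH3 and MDH1 and CIT2 relative to CIT1, and the first gene of each of the other 5 pairs lies lower.

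The surrounding pathway was described by 7 lists with 86 measured genes. As deposited 51 of them were called lower, 13 higher and 22 neither (median log2 difference -0.20), and after centring 45 were lower, 28 higher and 13 neither (median -0.11). Centring took out a shift of -0.10 between the groups, so each decrease below, given as deposited, is smaller by that amount after centring and each rise larger. The background shares of all probe sets were 47.8% lower and 27.1% higher as deposited, and 41.7% lower and 43.6% higher after centring.

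Of 15 enzymes that feed, parallel or use the glyoxylate cycle, 10 fell and 4 rose (median -0.37, range -0.62 to 0.61). After centring 9 of these enzymes fell and 5 rose (median -0.27). IDP2, the cytosolic NADP-dependent isocitrate dehydrogenase, fell by 0.62 and IDP3, its peroxisomal counterpart, by 0.59. ADH2, the glucose-repressed alcohol dehydrogenase that oxidizes ethanol, went the other way. ADH2 had log2 signals of 8.27, 8.22 and 8.28 with GST and of 8.89, 8.84 and 8.87 with GST-Med3, a rise of 0.61 in the same cultures in which CAT8 and ACS1 fell. Of 12 other genes of gluconeogenesis and the glycolytic steps it shares, 6 fell and 1 rose (median -0.11), and after centring 4 fell and 5 rose. MAE1, the mitochondrial malic enzyme, rose by 0.48, and TDH1, a glyceraldehyde-3-phosphate dehydrogenase with near-identical paralogs that may share its signal, fell by 0.47. PGI1, phosphoglucose isomerase, fell by 0.25, or by 0.16 after centring. PYC2, a pyruvate carboxylase that makes oxaloacetate, fell by 0.21, or by 0.12 after centring.

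Of 7 genes for phosphofructokinase, pyruvate kinase and the enzymes of fructose-2,6-bisphosphate, the effector that inhibits Fbp1, 3 fell and 1 rose (median -0.10), and after centring 3 fell and 2 rose. FBP26, which breaks the effector down, fell by 0.48 and PFK26, which makes it, by 0.35, whereas PFK2, a subunit of phosphofructokinase, rose by 0.33. PYK2, the minor pyruvate kinase, fell by 0.15, or by 0.06 after centring, and its call was lost in 2 of 22 alternatives (adjusted p at most 0.104 from limma), without replicate C of either group after centring. Of 11 genes of acetate, lactate and carnitine transport, 6 fell and 2 rose (median -0.11), and after centring 4 fell and 4 rose. JEN1, the lactate and pyruvate permease, had the largest decrease in the list. Its log2 signal was 10.21, 10.11 and 10.22 with GST and 9.33, 9.34 and 9.40 with GST-Med3, a decrease of 0.82. YAT2, a carnitine acetyltransferase, fell by 0.61 and ADY2, an acetate transporter, by 0.49. YHM2, a mitochondrial citrate and oxoglutarate carrier, rose by 0.33. The ADY2 arrays with GST-Med3 were not above background.

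Of 21 regulators, 12 fell and 5 rose (median -0.21), and after centring 11 fell and 7 rose. The glucose repressor genes MIG1 and MIG2 had the largest differences in the list, and both rose. MIG2 went from log2 signals of 7.12, 7.11 and 7.05 to 8.02, 7.97 and 8.08, a difference of 0.93, but was not above background with GST. MIG1 went from 8.67, 8.58 and 8.60 to 9.31, 9.25 and 9.34, a difference of 0.68. REG1, the subunit that directs the phosphatase Glc7 against Snf1, fell by 0.51, and RDS2, a zinc cluster regulator of gluconeogenic genes, by 0.49. Of the activator genes in the list, ADR1 had a difference of 0.09 and did not pass the test as deposited, but had 0.18 and passed it after centring. Other activator genes went in both directions, since HAP4 fell by 0.42 and ERT1 rose by 0.29, both past the test.

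Of 11 genes of the retrograde pathway and its targets, 7 fell and none rose as deposited (median -0.27, highest difference 0.06), and 7 fell and 3 rose after centring. IDH2, a subunit of mitochondrial isocitrate dehydrogenase, fell by 0.52, RTG2, an activator of the pathway, by 0.38, LST8, a component of the TOR complexes, by 0.37 and BMH2, a 14-3-3 protein, by 0.29. The GID ubiquitin ligase degrades Fbp1, Mdh2, Icl1 and Pck1 when glucose returns. Of 9 genes for this ligase and related factors, 7 fell and none rose (median -0.34), and after centring 7 fell and 2 rose. UBC8, the ubiquitin-conjugating enzyme of the ligase, went from 12.03, 11.93 and 11.96 to 11.13, 10.98 and 11.12, a decrease of 0.90. VID28, FYV10 and GID8, subunits of the ligase, fell by 0.58, 0.52 and 0.35.

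**Figure D5:**
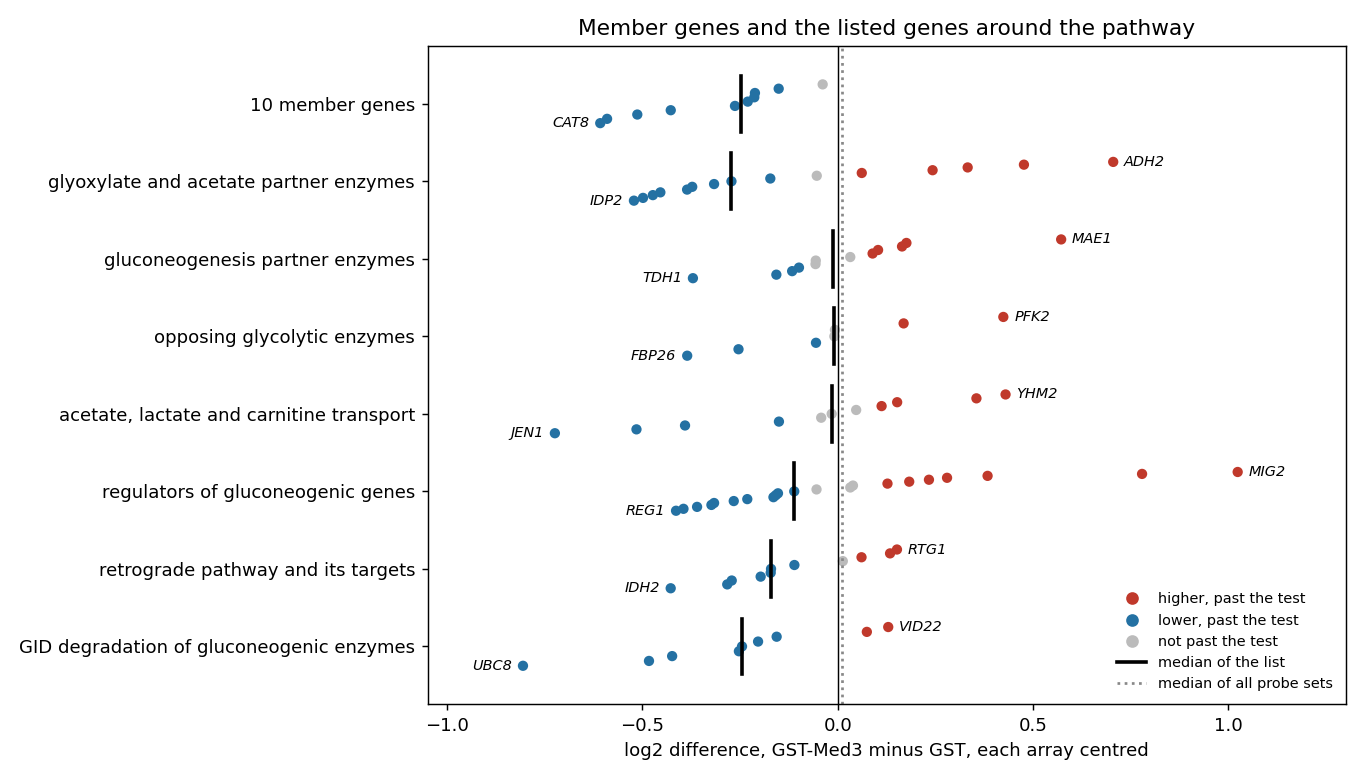
Log2 difference (GST-Med3 minus GST, each array centred, horizontal axis) of every measured gene of the 10 and of the 7 lists, in red when higher past the test, blue when lower past it and grey otherwise. Black bars show list medians and the dotted line the median of all probe sets (0.01). No member is red, while each of the 7 lists holds genes in both colours.

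The 5 genes whose log2 signals followed CAT8 most closely over the 6 arrays were GIT1, AAD10, CTR1, BIO5 and SUE1, with Pearson's r of 0.9993 or more. Their log2 differences were between -2.56 (BIO5) and -0.97 (SUE1). The 6 points share their 2 groups, and 322 probe sets had an r above 0.99, so this order only describes the separation of the groups.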

How the data were processed

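RNA of 3 biological replicates per group was hybridized to Affymetrix Yeast Genome 2.0 Arrays. The authors deposited 1 log10 signal per probe set and array after a normalization within each experiment (ArrayStar), with background correction and probe summary not given in the sources used here. Base 10 was inferred, because antilogs to it came out with no more than 2 decimals for 100% of the values and antilogs to base 2 for 4.12%. Log10 values were converted to log2. Of 10928 probe sets, the 5498 annotated to S. cerevisiae (names of assembly R64) were tested with the lmFit and eBayes functions of limma 3.58.1 under R 4.3.3, no trend, and p-values were adjusted over all of them (Benjamini-Hochberg). A gene with several probe sets was taken by the brightest. Not tested were 1747 S. pombe probe sets, 213 controls and reporters and 3470 without a listed gene.

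The 10 genes and the 7 lists were chosen with earlier results of these data known. Named were the 10 genes, PGD1, isoforms, and in each list up to 4 genes past the test with the largest differences. ADR1, HAP4, ERT1 and PDH1 were added after their values were seen. Listed genes without a tested probe set were not used here. Alternatives changed the scaling, background, filter, probe sets, variance model, pairing and arrays included. The procedure was tested on simulated data with the same spread for all probe sets and no common shift between the groups. That test does not bear on the choice of scaling. The number of arrays limits the precision, and p-values rest on the spread between the arrays of a group. As deposited, that spread is a variance common to all probe sets and not that of each gene. Arrays of the same group correlated at a Pearson r of 0.9994 or more, and arrays of different groups at 0.9731 or less. The paper calls the replicates biological but does not describe how separately they were grown. Whether the spread is that of independent cultures was not tested.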

Additional observations from a re-analysis of the deposited data

How the results depend on the processing

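The count of lower genes among the 10 stayed between 8 and 10 under all alternatives, and none was higher in any. It was 9 after centring, quantile normalization or background subtraction with centring, where MDH2 did not pass, and 8 with the filter on low values, which removed MLS1 and FBP1. Leaving out single arrays gave 9 or 10 lower. The calls of the other 9 genes did not change in any alternative in which they were measured. Among the 86 genes of the lists, 13 were higher as deposited, but 28 after centring, 24 after quantile normalization, 27 after background subtraction with centring, 21 with array weights (whose estimate did not converge) and 27 with the replicate block after centring. Without single arrays this count ranged from 12 to 28, and the lower count from 44 to 53. The balance of higher and lower genes in the lists therefore depends on the scaling. Over all probe sets, 36.1% of calls were higher as deposited and 51.1% after centring. With the replicate letter as a block, 10 genes were lower and 0 higher as deposited, 17 list genes were higher and 54 lower, and 4580 probe sets were called against 4117. Whether arrays of the same letter belong together was not settled. Deviations from the group means correlated at 0.03 to 0.06 between arrays of the same letter and at -0.03 to -0.01 between arrays of different letters. This correlation over probe sets cannot detect an offset shared by whole arrays, and replicate B had the lowest array median in both groups. The size of the differences of MLS1, FBP1, SIP4, ADY2 and MIG2 is limited by background.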
